A study of Mus musculus with 8 samples.

Results

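Jmjd8, Mest, Trf, Itpr2, Pacs1, Akap12 and Kctd12 are 7 of the 45556 named genes in the deposited count table of B16F10 cells, a mouse melanoma line. They were listed because their counts were lower, but not lost, in cells carrying a hairpin against Drg2 (shDRG2) than in cells carrying the empty vector pLKO. The hairpin and vector lines were each measured without treatment and after 24 h with 5 ng/ml of recombinant mouse interferon-gamma (IFN-γ). Each of the 4 groups has 2 libraries, which makes 8 in all. Every cell in the study is B16F10 carrying a pLKO-type construct, each line appears once, and the hairpin sequence is not given in the sources used here. A difference between shDRG2 and pLKO is therefore a difference between these lines, and an effect of DRG2 loss cannot be told apart from other effects of the hairpin or from drift between lines. The labels do not state that replicates were separate cultures, so the spread that p-values rest on may be technical. In bulk RNA, fewer cells carrying a transcript and less of it per cell cannot be told apart.

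As background, the 7 genes do not form one pathway, but most of their products act in the secretory route, in calcium and kinase signalling, or at the cell surface. Jmjd8 encodes a JmjC-domain protein of the endoplasmic reticulum, Itpr2 the type 2 inositol trisphosphate receptor that releases calcium from that store, and Mest an imprinted, paternally expressed hydrolase-like membrane protein. Trf encodes transferrin, the secreted iron carrier, and Pacs1 a sorting adaptor that returns cargo such as furin to the trans-Golgi network. Akap12 encodes a scaffold that tethers protein kinase A and protein kinase C, and Kctd12 an auxiliary subunit of GABA-B receptors.

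Library totals ran from 25422758 to 36654519 estimated counts. Drg2 was at 64.3 to 76.3 CPM (counts scaled to the TMM-adjusted library size) in the pLKO libraries and at 6.46 to 9.34 CPM in the shDRG2 libraries. The 7 melanocyte lineage markers checked (Dct, Tyrp1, Tyr, Pmel, Mlana, Sox10 and Mitf) were all detected. Their summed level differed by group without overlap, at 12900 to 13000 CPM in pLKO, 11000 to 11100 CPM in treated pLKO, 13900 to 14900 CPM in shDRG2 and 9620 to 10100 CPM in treated shDRG2. The 5 immune markers summed to at most 1.08 CPM, with Cd3e, Adgre1 and Itgam at 0 in every library, and the 4 epithelial markers to at most 0.688 CPM, with Epcam at 0. The 5 fibroblast markers summed to 15.8 to 19.5 CPM without IFN-γ and 4.16 to 5.74 CPM with it. The 5 endothelial markers summed to 5.04 to 5.97 CPM in untreated shDRG2 cells and at most 2.16 CPM in the other groups, with Cdh5 and Kdr at 0. The part of these markers in the results below was not tested.

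Bases upstream of the annotated start are shown for a pair of genes that did not respond to IFN-γ at the test's threshold (Jmjd8, Itpr2) and a pair that fell with it in both lines (Pacs1, Kctd12), to let the start regions be compared. They are RefSeq sequence of GRCm38.p6, read 5′ to 3′ on the strand of the gene and cut at the first base that GENCODE M21 gives to the gene, with CpG dinucleotides in capitals. They lie at chr17:25828793-25828866 on the plus strand (Jmjd8), and on the minus strand at chr6:146502224-146502473 (Itpr2), chr19:5273120-5273369 (Pacs1) and chr14:102982638-102982887 (Kctd12).
Jmjd8: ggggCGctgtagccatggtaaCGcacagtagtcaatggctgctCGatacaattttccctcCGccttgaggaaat
Itpr2: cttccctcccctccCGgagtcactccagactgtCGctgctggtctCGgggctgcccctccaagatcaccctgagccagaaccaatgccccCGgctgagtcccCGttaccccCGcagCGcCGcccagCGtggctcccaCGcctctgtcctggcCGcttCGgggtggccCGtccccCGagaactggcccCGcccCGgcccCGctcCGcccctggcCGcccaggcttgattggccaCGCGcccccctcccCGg
Pacs1: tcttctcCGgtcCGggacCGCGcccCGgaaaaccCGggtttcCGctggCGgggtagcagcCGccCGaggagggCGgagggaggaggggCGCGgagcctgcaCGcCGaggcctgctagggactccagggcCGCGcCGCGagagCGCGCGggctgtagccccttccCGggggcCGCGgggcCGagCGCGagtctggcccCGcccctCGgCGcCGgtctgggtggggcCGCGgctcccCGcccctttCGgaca
Kctd12: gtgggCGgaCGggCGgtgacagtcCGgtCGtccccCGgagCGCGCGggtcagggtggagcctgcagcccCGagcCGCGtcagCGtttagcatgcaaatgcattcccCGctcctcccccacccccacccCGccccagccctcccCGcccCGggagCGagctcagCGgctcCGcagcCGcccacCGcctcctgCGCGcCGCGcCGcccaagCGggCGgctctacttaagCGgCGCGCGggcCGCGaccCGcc
The Jmjd8 stretch holds 4 CpG in 74 bases. Itpr2 holds 22 in 250 bases, and Pacs1 and Kctd12 hold 36 each in 250 bases. The median over 32851 RefSeq windows of 250 bases was 6 CpG, and the full Jmjd8 window of 250 bases held 9. The GC content was 74.4% for Itpr2, 78.8% for Pacs1 and 77.6% for Kctd12 beside a median of 52.4%. It was 52.7% for the 74 bases of Jmjd8 and 50.4% for its full window. In the full windows of 250 bases, available for 5 of the 7 genes (the above and Mest), no match was found on either strand to the gamma-activated site TTCNNNGAA, the interferon-stimulated response element core, the E-box CACGTG, the M-box TCATGTG or the cAMP response element TGACGTCA. These motifs, in that order, occur in 7.02%, 2.98%, 6.02%, 3.25% and 1.55% of all windows.

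Jmjd8 (ENSMUSG00000025736.15, GRCm38 chromosome 17, 25828867 to 25831843, plus strand) stood lowest relative to its control level. Its libraries read 10.8 and 11.4 CPM in untreated pLKO, 9.79 and 10.2 CPM in pLKO with IFN-γ, 2.46 and 1.63 CPM in shDRG2, and 2.47 and 2.00 CPM in shDRG2 with IFN-γ. The lines did not overlap, with 2.47 CPM as the highest shDRG2 value and 9.79 CPM as the lowest pLKO value. The shDRG2 level was 18.5% of the pLKO level without IFN-γ (log2 fold change -2.42, SE 0.196) and 22.4% with it (-2.17, SE 0.192). The lowest library had 42 counts, for which the exact 95% Poisson interval is 30.3 to 56.8, covering counting error only. The antisense gene Stub1, which encodes a ubiquitin ligase, shares 39.3% of Jmjd8's exon bases. Stub1 itself had 118 ± 9.52 CPM (SD, n = 2) in pLKO and 113 ± 7.71 CPM in shDRG2 (log2 fold change -0.06, SE 0.0880, adjusted p = 0.839). Library strandedness is not stated, so reads in the shared stretch cannot be told apart.

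Itpr2 (ENSMUSG00000030287.15, chromosome 6, 146108299 to 146502223, minus strand) differed between the lines and stayed close within them. Its values were 22.5 and 21.2 CPM in pLKO, 21.6 and 22.9 CPM in pLKO with IFN-γ, 9.55 and 8.95 CPM in shDRG2, and 9.96 and 8.34 CPM in shDRG2 with IFN-γ. The lines did not overlap, and the remaining level was 42.4% without IFN-γ (log2 fold change -1.24, SE 0.116) and 41.1% with it (-1.29, SE 0.115). No other gene's exons overlap those of Itpr2.

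Mest (ENSMUSG00000051855.15, chromosome 6, 30723547 to 30748465, plus strand) read 20.2 and 17.6 CPM in pLKO, 16.6 and 12.3 CPM in pLKO with IFN-γ, 7.12 and 8.14 CPM in shDRG2, and 3.40 and 5.03 CPM in shDRG2 with IFN-γ. Every shDRG2 library lay below every pLKO library, and replicates with IFN-γ were wider apart than those without. The remaining level was 40.3% without IFN-γ (-1.31, SE 0.192) and 29.2% with it (-1.76, SE 0.202). The antisense coatomer gene Copg2 shares 23.1% of Mest's exon bases, and its level was 133 ± 6.94 CPM for pLKO and 150 ± 17.6 CPM for shDRG2 (0.17, SE 0.0912, adjusted p = 0.475).

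Trf (ENSMUSG00000032554.15, chromosome 9, 103204001 to 103230444, minus strand) had 10.0 and 11 CPM in pLKO and 5.71 and 6.52 CPM in pLKO with IFN-γ. It had 4.76 and 4.38 CPM in shDRG2 and 2.53 and 2.16 CPM in shDRG2 with IFN-γ. The groups formed 4 separate levels, and the remaining level was 43.5% without IFN-γ (-1.20, SE 0.154) and 38.4% with it (-1.39, SE 0.166). Gm20425, a gene model on the same strand, shares 63.5% of Trf's exon bases, and the estimated counts of both are fractions, as when reads are divided between overlapping models. Gm20425 averaged 15.0 ± 3.49 CPM for pLKO and 8.42 ± 2.26 CPM for shDRG2 (-0.83, SE 0.229, adjusted p = 0.133), with a wider spread than Trf. With IFN-γ the difference was -0.87 (adjusted p = 0.112). Both differences were called by DESeq2 (adjusted p = 0.0264 and 0.0164) and without a filter on low counts (adjusted p = 3.86e-06 and 1.09e-06). When both were counted as one row, an alternative chosen after the data were seen, the difference between the lines was -0.97 (SE 0.154) without IFN-γ and -1.01 (SE 0.157) with it.

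Pacs1 (ENSMUSG00000024855.10, chromosome 19, 5133158 to 5273119, minus strand) read 13.7 and 14 CPM in pLKO and 7.82 and 7.07 CPM in pLKO with IFN-γ. In shDRG2 it was at 6.53 and 6.39 CPM, and with IFN-γ at 3.83 and 3.31 CPM. All shDRG2 libraries lay below all pLKO libraries, though untreated shDRG2 came close to IFN-γ-treated pLKO cells. The remaining level was 46.8% without IFN-γ (-1.09, SE 0.131) and 48.0% with it (-1.06, SE 0.140).

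Akap12 (ENSMUSG00000038587.9, chromosome 10, 4266380 to 4359470, plus strand) read 16.7 and 18.0 CPM in pLKO, 14.9 and 12.4 CPM in pLKO with IFN-γ, 6.84 and 9.80 CPM in shDRG2, and 6.86 and 7.06 CPM in shDRG2 with IFN-γ. The lines did not overlap, while 1 untreated shDRG2 library stood above the other 3 of its line. The remaining level was 47.8% without IFN-γ (-1.07, SE 0.167) and 51.0% with it (-0.97, SE 0.169).

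Kctd12 (ENSMUSG00000098557.1, chromosome 14, 102976581 to 102982637, minus strand) was the one gene of the 7 whose lines overlapped. Its libraries read 16.7 and 16.9 CPM in pLKO, 9.57 and 7.52 CPM in pLKO with IFN-γ, 12.6 and 10.2 CPM in shDRG2, and 3.30 and 3.31 CPM in shDRG2 with IFN-γ. Untreated shDRG2 cells thus had more Kctd12 than treated pLKO cells, while within each treatment shDRG2 was lower. The remaining level was 67.6% without IFN-γ (-0.56, SE 0.145) and 38.7% with it (-1.37, SE 0.164). The antisense long noncoding model Gm26778 shares 62.8% of Kctd12's exon bases, and had 2 counts in untreated shDRG2 and 0 in the other groups.

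**Figure D1:**
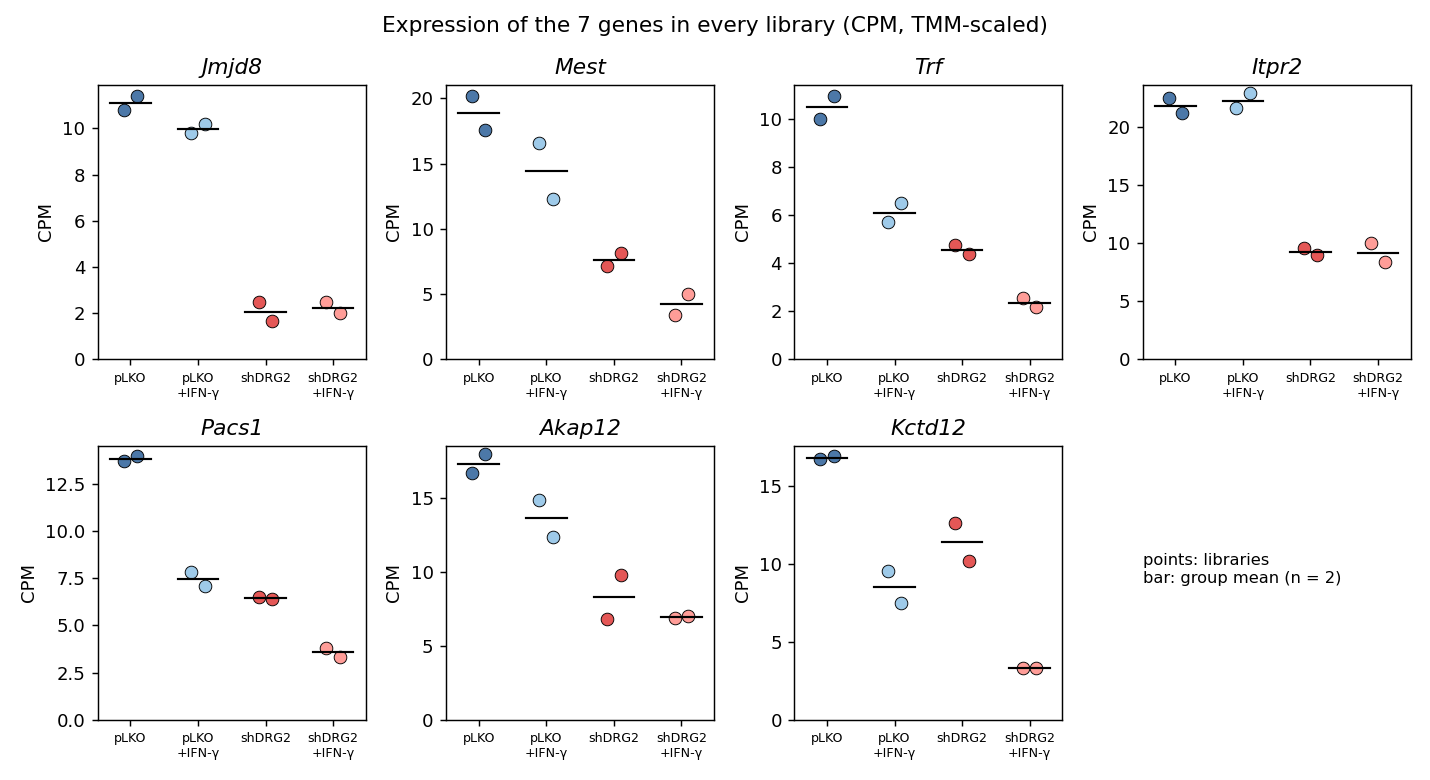
CPM of the 7 genes in each of the 8 libraries, 1 panel per gene with its own vertical axis from 0; points are libraries and bars are group means of 2 libraries. The shDRG2 points lie below all pLKO points for 6 genes, while for Kctd12 the untreated shDRG2 libraries (12.6 and 10.2 CPM) lie above the treated pLKO libraries (9.57 and 7.52 CPM).

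These differences between the lines are what the 7 genes were chosen on, so they are given as values and no test is read from them. Across the 13500 genes tested, 1.2% were called without IFN-γ (0.733% lower and 0.467% higher in shDRG2) and 1.67% with it (1.17% lower and 0.504% higher), at a Benjamini-Hochberg adjusted p of 0.05 from edgeR's quasi-likelihood test. The list sets no numeric threshold. Of the 7, Akap12 has the smallest difference with IFN-γ, and near it among genes not listed are Tnfrsf10b, a death receptor gene (-0.93 without and -1.11 with IFN-γ), and Anpep, an aminopeptidase gene (-0.93 and -1.03). By size alone, Pnma2 (-2.37 and -2.0) and Kif26b (-1.26 and -1.79) also lie in the range of the 7. So do 2310057J18Rik, Ddx25, Gm9732, Lama5 and Gria4. Among all tested genes, 45 were called lower in both comparisons and averaged at least 1 CPM over the 4 shDRG2 libraries, a count that includes genes of the 7. The 7 are thus not the full set of partly lowered genes.

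Levels can be compared between genes only per length, here as CPM per kilobase of annotated exon. In untreated pLKO cells the order of levels was Mest at 4.80 ± 0.458, Jmjd8 at 4.01 ± 0.154, Trf at 3.16 ± 0.204, Kctd12 at 2.78 ± 0.0209, Akap12 at 2.69 ± 0.143, Pacs1 at 2.29 ± 0.0344 and Itpr2 at 1.47 ± 0.0612. Kctd12 and Akap12 did not differ beyond their spread. Trf is placed by the counts of its own row, and Gm20425 shares 63.5% of its exon bases. How the division of reads between them bears on its place was not tested. In treated shDRG2 cells the range was narrower, from Akap12 at 1.08 ± 0.0212 and Mest at 1.07 ± 0.293 down to Kctd12 at 0.545 ± 0.00134, and Pacs1 at 0.592 ± 0.0612 did not differ from Itpr2 at 0.618 ± 0.0773 beyond their spread.

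The response to IFN-γ was not used to choose the genes, and it divided them. Kctd12, Pacs1 and, as counted by the authors, Trf fell with IFN-γ in both lines, and Mest fell in shDRG2 cells. Itpr2, Jmjd8 and Akap12 were called in neither line. In pLKO cells 3 of the 7 were called lower beside 12.7% of all tested genes, and in shDRG2 cells 4 of the 7 beside 15.2%. None of the 7 was called higher, beside 15.4% and 16.2% of tested genes (28.1% and 31.4% in either direction). The median log2 fold change of the 7 was -0.39 in pLKO and -0.84 in shDRG2 cells, where the median of all genes was 0.01 and 0.00.

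Kctd12 fell to 50.8% of its untreated level in pLKO cells (log2 fold change -0.98, SE 0.147, adjusted p = 0.000663) and to 29.0% in shDRG2 cells (-1.79, SE 0.162, adjusted p = 1.56e-05). Pacs1 fell to 53.9% in pLKO (-0.89, SE 0.129, adjusted p = 0.000519) and to 55.3% in shDRG2 cells (-0.86, SE 0.142, adjusted p = 0.00105). In each line, treated and untreated libraries of both genes did not overlap. In pLKO cells the responses of the 2 genes lay within their errors of each other.

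Trf fell to 58.2% in pLKO (-0.78, SE 0.150, adjusted p = 0.00324) and to 51.4% in shDRG2 cells (-0.97, SE 0.170, adjusted p = 0.00156). Counted together with Gm20425 the values were -0.39 (adjusted p = 0.0796) and -0.43 (adjusted p = 0.0644), neither of them called. Gm20425 alone was at -0.17 and -0.22, and whether the division of reads between the overlapping models plays a part was not tested. Mest was at -0.39 in pLKO (SE 0.183, 95% interval -0.80 to 0.01, adjusted p = 0.143) and fell in shDRG2 cells, to 55.3% (-0.84, SE 0.209, adjusted p = 0.0114). That fall was no longer called without replicate 1 of treated shDRG2 (-0.60, adjusted p = 0.0900) or without replicate 2 of untreated shDRG2 (-0.73, adjusted p = 0.0702). In pLKO cells Mest was called without a filter on low counts (adjusted p = 0.0289).

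Akap12 was at -0.35 in pLKO (95% interval -0.71 to 0.01, adjusted p = 0.136) and -0.25 in shDRG2 cells (-0.64 to 0.14, adjusted p = 0.318). Jmjd8 was at -0.15 (-0.52 to 0.23, adjusted p = 0.575) and 0.10 (-0.38 to 0.59, adjusted p = 0.762). Itpr2, the gene with the narrowest intervals among these 3, was at 0.03 (-0.21 to 0.27, adjusted p = 0.876) and -0.02 (-0.29 to 0.25, adjusted p = 0.922). The intervals bound any change and do not show that there was none.

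**Figure D2:**
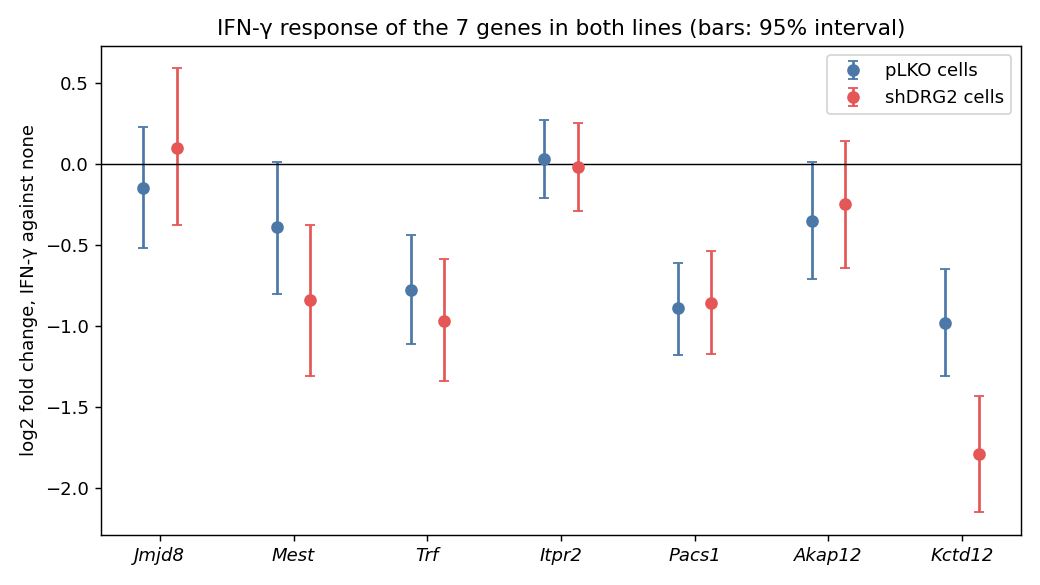
Log2 fold change of IFN-γ against none for the 7 genes in pLKO cells (blue) and shDRG2 cells (red), with points from the fit to all 8 libraries and bars for 95% intervals. Kctd12, Pacs1 and Trf lie below 0 in both lines with intervals clear of 0, while Itpr2 and Jmjd8 lie near 0.

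Whether the response differed between the lines was tested as an interaction. The same value is the line difference with IFN-γ less the line difference without it, and the 7 genes were chosen on those differences. For the 7, p-values and intervals of the interaction are therefore descriptive only. None of the 7 was called, and 1 of the 13500 genes was, a share of 0.00741%; without adjustment 321 genes had a p under 0.05, and DESeq2 called 7 genes. Kctd12 was at -0.80 (SE 0.219, 95% interval -1.29 to -0.32, unadjusted p = 0.00419 and adjusted p = 1.00 in edgeR). Mest was at -0.45 (-1.06 to 0.17) and Trf at -0.19 (-0.69 to 0.31). Pacs1 was at 0.03 (-0.40 to 0.46), Itpr2 at -0.05 (-0.41 to 0.31), Akap12 at 0.10 (-0.42 to 0.63) and Jmjd8 at 0.25 (-0.36 to 0.86). The level in treated shDRG2 cells relative to untreated pLKO cells was 19.6% for Kctd12, 20.2% for Jmjd8, 22.3% for Mest, 22.3% for Trf, 25.9% for Pacs1, 40.0% for Akap12 and 41.9% for Itpr2. The value for Trf is from its own row, without the counts given to Gm20425.

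Calcium release genes were followed through the inositol trisphosphate and store calcium list, with Itpr2 left out. Of 40 tested members, none was lower and 1 was higher in untreated shDRG2 cells (median 0.00), and 1 was lower and 1 higher with IFN-γ (median 0.04). Atp2b4, a plasma membrane calcium pump gene, was the higher one, averaging 4.89 ± 0.212 CPM for pLKO and 12.5 ± 0.944 CPM for shDRG2 (1.35, SE 0.174, adjusted p = 0.00528) with a treated difference of 1.44 (SE 0.175, adjusted p = 0.00379). Without IFN-γ that call was lost when pLKO replicate 1 (adjusted p = 0.0659) or shDRG2 replicate 1 (adjusted p = 0.0663) was left out.

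The receptor family itself was uneven. Itpr3 averaged 3.13 ± 0.489 CPM for pLKO and 1.62 ± 0.00745 CPM for shDRG2 (-0.94, SE 0.226, adjusted p = 0.0840). Among treated cells it was lower in shDRG2, 1.53 ± 0.191 against 3.22 ± 0.0495 CPM (-1.08, SE 0.225, adjusted p = 0.0451). That call was lost without any 1 of the 8 libraries (adjusted p from 0.0642 to 0.252) and with DESeq2 (adjusted p = 0.0793). The untreated difference was called without a filter (adjusted p = 0.0135). Itpr1, the most abundant of the 3, averaged 205 ± 2.58 CPM for pLKO and 201 ± 17.4 CPM for shDRG2 (-0.03, 95% interval -0.20 to 0.15, adjusted p = 0.934), with a treated difference of 0.14 (-0.04 to 0.31, adjusted p = 0.580). Per kilobase of exon, Itpr2 made up 11.3% ± 0.586 of the receptor transcripts in pLKO and 5.32% ± 0.657 in shDRG2, and Itpr1 86.0% ± 0.197 and 93.2% ± 0.770. Among treated cells Itpr2 made up 12.1% ± 0.622 in pLKO and 4.96% ± 0.452 in shDRG2. The family total was 13 ± 0.134 CPM per kilobase in pLKO and 11.8 ± 0.923 in shDRG2, and 12.5 ± 0.121 and 12.5 ± 0.424 with IFN-γ.

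**Figure D3:**
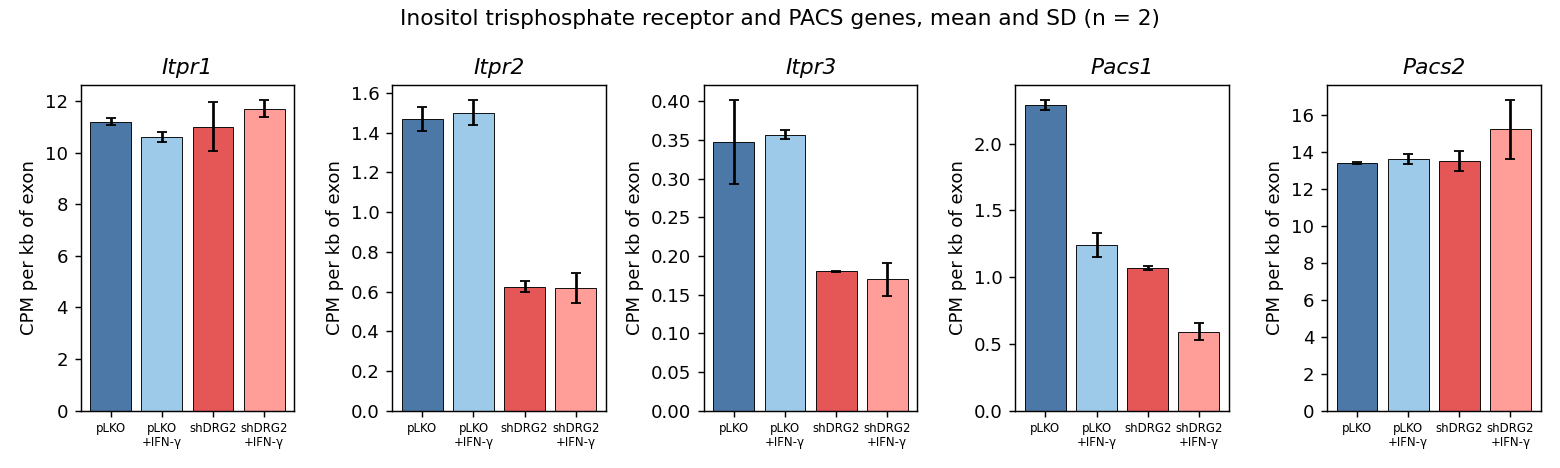
CPM per kilobase of exon for Itpr1, Itpr2, Itpr3, Pacs1 and Pacs2 in the 4 groups; bars are means of 2 libraries from 0, error bars are SD, and each panel has its own scale. Itpr2 and Itpr3 are lower in both shDRG2 groups while Itpr1 stays between 10.6 and 11.7 CPM per kilobase, and Pacs2 stays between 13.4 and 15.2 while Pacs1 runs from 2.29 down to 0.592.

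Iron genes showed the opposite sign in 1 place. Of 20 tested genes of iron uptake, storage and export other than Trf, edgeR called none lower and 1 higher in each line comparison, with medians of 0.03 and 0.00. This was Slc40a1, the gene of the iron exporter ferroportin, averaging 69.5 ± 4.55 CPM for pLKO and 110 ± 9.47 CPM for shDRG2 (0.66, SE 0.0838, adjusted p = 0.00491), and among treated cells 104 ± 0.170 and 161 ± 0.768 CPM (0.63, SE 0.0829, adjusted p = 0.00517). Treatment raised it as well, by 0.58 in pLKO (adjusted p = 0.000492) and 0.55 in shDRG2 cells (adjusted p = 0.000615), where Trf by its own row fell. Summed with Gm20425, Trf was at -0.39 in pLKO and -0.43 in shDRG2 cells, called in neither line. The untreated call was lost without pLKO replicate 2 (adjusted p = 0.0567) or shDRG2 replicate 1 (adjusted p = 0.0574), and the treated one without shDRG2 IFN-γ replicate 1 (adjusted p = 0.0645) or 2 (adjusted p = 0.0531). Tfrc, the transferrin receptor gene, averaged 334 ± 37.5 CPM for pLKO and 363 ± 24.4 CPM for shDRG2 (0.12, adjusted p = 0.677). With IFN-γ it was at 0.29 (adjusted p = 0.205), a difference called without a filter (adjusted p = 0.0339). In edgeR, 6 of the 20 iron genes without IFN-γ and 9 with it had an unadjusted p under 0.05. Of all 13500 tested genes, 1723 and 1616 did. DESeq2 also called Cp with IFN-γ, and without a filter Cp and Slc25a37 were called in both comparisons.

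Among imprinted genes other than Mest, 27 of 57 listed were tested, and edgeR called 1, lower, in each line comparison (medians -0.01 and 0.01). It was Usp29, a ubiquitin protease gene of the Peg3 imprinted domain, with 194 counts in pLKO, 130 in treated pLKO and 0 in both shDRG2 groups. Taking 3 counts per group as the floor, it was at least 57.9-fold lower without IFN-γ (adjusted p = 0.00136) and at least 48.2-fold lower with it (adjusted p = 0.00126). Unlike Mest it was not retained at a lower level. In edgeR, 6 of the 27 genes without IFN-γ and 7 with it had an unadjusted p under 0.05. DESeq2 also called Peg10 in both comparisons. Without a filter Peg10 was called in both as well, and Commd1 without IFN-γ.

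Sorting genes of the trans-Golgi network gave no call in either line comparison by edgeR or DESeq2, with 3 and 2 genes at an unadjusted p under 0.05, 24 tested besides Pacs1 and values from -0.24 to 0.23 without IFN-γ and from -0.24 to 0.17 with it. In edgeR the paralog Pacs2 averaged 93.5 ± 0.348 CPM for pLKO and 94.5 ± 3.75 CPM for shDRG2 (0.02, 95% interval -0.17 to 0.20), with a treated difference of 0.15 (-0.03 to 0.34). IFN-γ gave no called change of Pacs2 in pLKO (0.03, adjusted p = 0.858) or shDRG2 cells (0.16, adjusted p = 0.176), where Pacs1 fell.

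Of 30 tested genes of A-kinase anchoring and protein kinase A other than Akap12, edgeR called 1, higher, in untreated shDRG2 cells. DESeq2 called Akap6 and Ezr there, and without a filter Akap11 was called as well. With IFN-γ neither edgeR nor DESeq2 called a gene. In each comparison 6 genes had an unadjusted p under 0.05 in edgeR (medians 0.03 and 0.04). Ezr, the gene of the membrane-cytoskeleton linker ezrin, was the edgeR call, rising from 196 ± 1.42 to 254 ± 1.75 CPM (0.38, SE 0.0680, adjusted p = 0.0314). That call was lost without any 1 of the untreated libraries or of the treated shDRG2 libraries (adjusted p from 0.0669 to 0.182). Prkaca, the gene of a catalytic kinase subunit, was at 0.07 without IFN-γ (adjusted p = 0.819) and 0.01 with it (adjusted p = 0.994), and fell with IFN-γ in pLKO (-0.33, adjusted p = 0.0149) and shDRG2 cells (-0.39, adjusted p = 0.00536).

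In edgeR, no gene was called between the lines among 25 tested JmjC-domain genes other than Jmjd8 (medians -0.01 and 0.00) or among 28 tested KCTD genes and GABA-B receptor partners other than Kctd12 (medians 0.04 and 0.01). At an unadjusted p under 0.05 there was 1 JmjC gene in each comparison, and 4 and 3 KCTD-list genes. DESeq2 called no JmjC gene and, in each comparison, 1 KCTD-list gene, the G protein subunit gene Gng2. With IFN-γ, 3 JmjC genes fell and 3 rose in pLKO cells, and 4 and 5 in shDRG2 cells. Of the KCTD list, 1 fell and 4 rose in pLKO cells, and 2 and 5 in shDRG2 cells. Of all tested genes, 12.7% fell and 15.4% rose in pLKO, and 15.2% and 16.2% in shDRG2 cells.

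The genes next to the 7 on their chromosomes were compared as well. Of 41 neighbours, up to 3 tested genes on each side, edgeR called none in either direction between the lines without IFN-γ, and 2 lower and none higher with it, with medians of -0.06 and -0.03. At an unadjusted p under 0.05 there were 10 and 11. DESeq2 called Gm20425, Lmo7 and Mycbp2 without IFN-γ, and Cst6, Gm20425, Mycbp2 and Plekhg1 with it. The 2 called by edgeR were Cst6, a cysteine protease inhibitor gene 212 kb from Pacs1 by start (-0.53, SE 0.112, adjusted p = 0.0455), and Plekhg1, 526 kb from Akap12 (-0.62, SE 0.0952, adjusted p = 0.0118). The Cst6 call was lost without any 1 of the treated libraries or of the untreated shDRG2 libraries (adjusted p from 0.0705 to 0.241) and with DESeq2 size factors (adjusted p = 0.0501). The Plekhg1 call was lost without treated pLKO replicate 2 (adjusted p = 0.0662) or treated shDRG2 replicate 1 (adjusted p = 0.0750) or 2 (adjusted p = 0.107).

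The surroundings of Kctd12 were shifted as well. All 6 of its neighbours had negative values in both comparisons, from -0.47 to -0.08 without IFN-γ and from -0.39 to -0.21 with it. They include Mycbp2, a ubiquitin ligase gene (-0.47, adjusted p = 0.0599). Chromosome 14 as a whole was lower in shDRG2, with a median of -0.28 without and -0.27 with IFN-γ over 435 tested genes, of which 6.21% and 9.43% were called lower. Beside these, Kctd12 itself was at -0.56 and -1.37, and the part of the chromosome in its difference was not tested. On the chromosomes of the other 6 genes the median lay between -0.02 and 0.02, and 0.324% to 0.960% of tested genes were called lower. The 6 neighbours of Jmjd8 had negative values too, from -0.72 to -0.06 without IFN-γ and from -0.81 to -0.01 with it. None of them was called by edgeR or DESeq2. The lowest in both comparisons was Rhbdl1, with an SE of 1.19 without IFN-γ and 1.08 with it. Wdr24 and Stub1 were at -0.01 with IFN-γ (SE 0.111 and 0.0879). Metrn was at -0.21 (SE 0.103) without IFN-γ and -0.27 (SE 0.104) with it. The median of the 6 Jmjd8 neighbours was -0.28 in each comparison. Whether there is a shift around Jmjd8 was not tested.

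**Figure D4:**
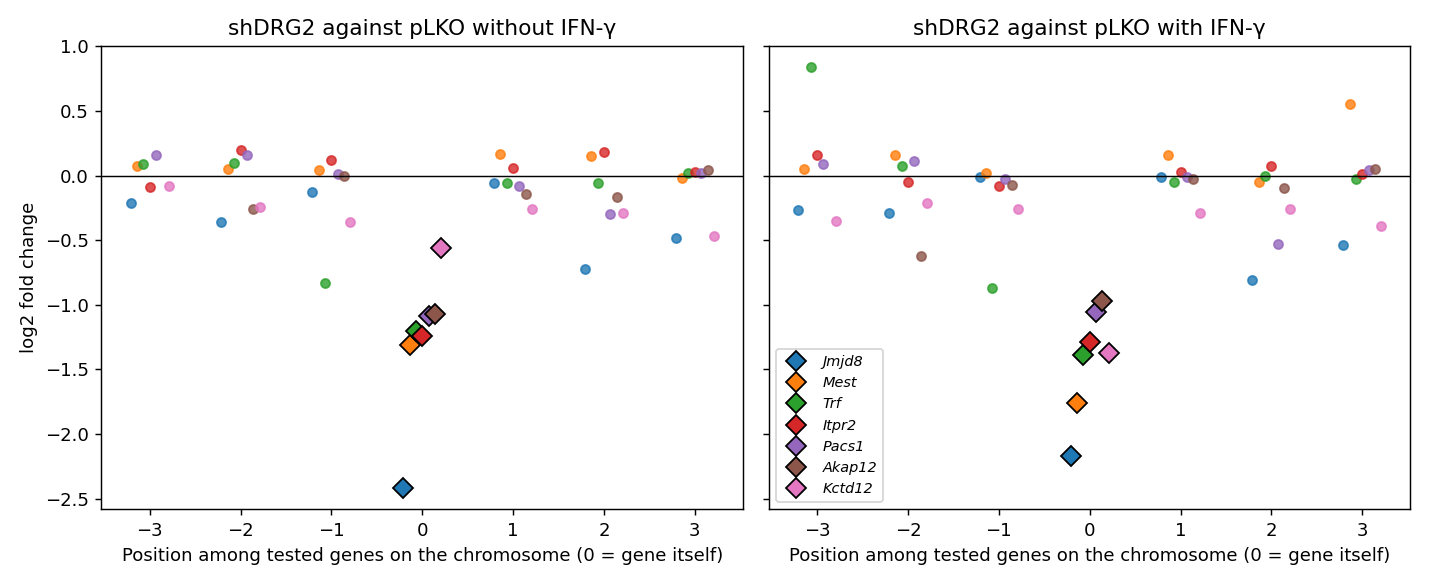
Log2 fold change of shDRG2 against pLKO for the 7 genes (diamonds at 0) and up to 3 tested genes on each side (circles in the colour of the gene they neighbour), without IFN-γ on the left and with it on the right. The diamonds lie at -0.56 or lower while the 41 neighbours have medians of -0.06 and -0.03. All neighbours of Kctd12 and Jmjd8 are below 0, though the Jmjd8 neighbours Rhbdl1 and Stub1 lie within their SE of 0.

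The 7 profiles were compared over the 8 libraries by Pearson correlation of log2 CPM, a description only, since all points share the same lines and the genes were chosen on the line difference. Over the 21 pairs it ran from 0.542 (Jmjd8 with Kctd12) to 0.991 (Jmjd8 with Itpr2), with a median of 0.885. Trf and Pacs1 were at 0.986. Among 10038 genes averaging at least 5 CPM, the profiles most like Jmjd8 were Itpr2 and Kctd9 (0.991 and 0.987), and those most like Itpr2 were Jmjd8 and the mismatch repair gene Mlh3 (0.991 and 0.989). For Mest they were Wdhd1 and Med4 (0.993 and 0.985), for Trf the integrin adaptor gene Fermt2 and Pacs1 (0.989 and 0.986), and for Pacs1 Fermt2 and Anpep (0.988 and 0.988). For Akap12 they were Znf512b and Sfmbt1 (0.988 and 0.982), and for Kctd12 Masp1 and Tuba4a (0.994 and 0.990). Masp1, a complement-activating protease gene, went from 11.5 CPM in pLKO and 4.71 CPM in treated pLKO to 6.25 CPM in shDRG2 and 1.15 CPM in treated shDRG2. Of the 13 distinct genes named here as most alike, 5 lie on chromosome 14 (Kctd9, Wdhd1, Med4, Fermt2 and Sfmbt1), and Znf512b had no chromosome assigned. Of the 10038 genes compared, 3.31% lie on chromosome 14. Between the lines without IFN-γ these 5 were at -0.28, -0.43, -0.28, -0.29 and -0.43, where the median of the chromosome was -0.28. The part of the chromosome in their likeness was not tested.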

How the data were processed

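RNA of 8 libraries, 2 in each of 4 groups, was sequenced from a TruSeq preparation, per the labels' protocols. Per gene, the deposited table gives estimated counts, unscaled between libraries. The submitters' processing notes name STAR, Salmon 1.5.2 and mm10 without stating their roles. How counts were summed per gene, and with which annotation, is not given in the sources used here. From 45583 rows, 27 with date-like or repeated names were left out and 45556 kept. After rounding, edgeR 4.0.16 (R 4.3.3) was run: filterByExpr over the groups (13500 genes), TMM scaling, and a quasi-likelihood fit with 1 coefficient per group on all 8 libraries. The two-sided F test was adjusted by Benjamini-Hochberg over all tested genes, with calls at 0.05. Fold changes are log2 from this fit, intervals are 95%, and errors after ± are SD (n = 2). Calls of the lists and neighbours were also counted with DESeq2 and without adjustment. The procedure was tested on simulated data. Alternatives were DESeq2 1.42.0, its size factors, upper-quartile scaling, no filter, a replicate block, each library left out in turn and, chosen after seeing the data, Trf summed with Gm20425.

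Positions and exon lengths are from GENCODE M21 (GRCm38, the assembly of mm10). The 7 genes and all gene lists were chosen with earlier results of these data known. Named beyond the 7 are list genes called in either line comparison, near paralogs and partners, the 3 tested neighbours on each side, overlapping genes, and the 2 most similar profiles for each gene. Counts without molecular identifiers are not independent molecules.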

Additional observations from a re-analysis of the deposited data

How the results depend on the processing

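The count of genes called between the lines without IFN-γ, 162, became 302 with DESeq2, 673 under a replicate block and 678 unfiltered, and ran from 27 to 167 when 1 library was left out. With IFN-γ, 226 became 653 without a filter and 675 with the replicate block, and ran from 44 to 202. The IFN-γ response, at 3796 genes in pLKO and 4233 in shDRG2 cells, ran from 2482 to 3749 and from 2720 to 4297 with 1 library left out. The difference between responses, 1 gene, became 2 under the replicate block, 7 with DESeq2 and 58 unfiltered, and ran from 1 to 2. Counts moved by over 1.5 times without either untreated pLKO replicate (37 and 61), either untreated shDRG2 replicate (27 and 61) or treated shDRG2 replicate 2 (103) in untreated cells, and without either treated pLKO (86 and 123) or treated shDRG2 replicate (44 and 58) in treated cells. The IFN-γ response did so without pLKO replicate 1 (2482) or treated pLKO replicate 2 (2495), and in shDRG2 without treated shDRG2 replicate 1 (2720).

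Of the 7 genes, those called lower after IFN-γ numbered 3 in pLKO and 4 in shDRG2 cells. Without a filter on low counts they numbered 4 in each line. With Trf and Gm20425 summed they numbered 2 in pLKO and 3 in shDRG2 cells. Signs changed only for values near 0 that were never called. For Itpr2, the pLKO response was -0.01 under upper-quartile scaling, and with 1 library left out it ran from -0.01 to 0.08, the shDRG2 response from -0.15 to 0.11 and the difference from -0.18 to 0.07. The Jmjd8 response in shDRG2 ran from -0.14 to 0.45, the Akap12 response there from -0.49 to 0.04, and the differences for Akap12 from -0.14 to 0.38 and for Pacs1 from -0.07 to 0.13. Between the lines without IFN-γ, the ranges were -0.12 to 0.06 for Itpr1, -0.02 to 0.06 for Pacs2 and -0.02 to 0.14 for Prkaca. With IFN-γ, Prkaca was at -0.01 under upper-quartile scaling and ran from -0.07 to 0.09. The cause of these changes was not tested.

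Same-numbered replicates share only a number in the labels. Their deviations from the group means correlated at 0.107 to 0.274 between groups, and the replicate block changed no call of the 7 genes in the IFN-γ responses or their difference. Between the lines it called Gm20425 without and with IFN-γ (adjusted p = 0.00573 and 0.00484), Itpr3 without (0.0291), and Ezr and Tfrc with IFN-γ (0.0383 and 0.0335). Of the neighbours it called 4 in each comparison. Where a library is left out, the lone one is assumed to vary like the other groups.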
